A study of Homo sapiens with 2 samples.

Results

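Heat shock chaperones of the cytosol and the mitochondria were followed in A375 cells transfected with THOC2 siRNA (si-THOC2) or control siRNA (NC). The 45 genes were taken by symbol from the deposited table of normalized values, which names 34757 genes, and all 45 were found there, read by 68 of the 58201 probes. A375 cells are an established line that was derived from a malignant melanoma. The NC group was 1 culture of A375 given a control siRNA that is not aimed at a human gene, and the si-THOC2 group was 1 culture of A375 given an siRNA against THOC2. Both were transfected with a Lipofectamine reagent per the methods and harvested at 48 h per the labels. The methods list 4 siRNAs against THOC2 without saying which one the arrays used. The labels state DMEM with glutamine and serum as the medium, whereas the methods state RPMI-1640. Total RNA of each culture was hybridized to 1 one-colour Agilent array, and both arrays lay on 1 slide and were scanned together. With no replicate, how far cultures vary is not known and the conditions could not be tested against each other, so each difference below is one between these 2 arrays.

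The labels conflict, since title and description give each sample the opposite condition to its source field. Titles and descriptions were followed here, and on the array that they call si-THOC2 both THOC2 probes were the lower. The probe at hg19 chrX:122734486-122734545 gave 136 with NC and 40.9 with si-THOC2 (log2 fold change -1.42). The probe at chrX:122747960-122748019 had 67.3 with NC and 35.1 with si-THOC2 (log2 fold change -0.63). Of 13 markers of melanoma lines, 8 were well above background on both arrays, namely SOX10, MITF, VIM, AXL, NGFR, S100A1, S100B and DCT. DCT was dim (18.0 with NC, 24.4 with si-THOC2). PMEL, TYR, TYRP1 and SOX9 were well above background on neither array. MLANA was so on the si-THOC2 array only, by a single probe (2.94 with NC, 18.7 with si-THOC2). That signal was near the lowest one called there (15.9), and the other MLANA probe was called on neither array.

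Molecular chaperones bind proteins that are not yet folded or have lost their fold. HSP70 proteins do so in cycles driven by ATP, in which J-proteins deliver clients and start hydrolysis, and BAG and HSP110 proteins release ADP to reset the cycle. HSP90 takes over many clients late in folding with the help of co-chaperones, the chaperonins HSP60/HSP10 and TRiC fold proteins inside a closed chamber, and small heat shock proteins hold unfolded proteins without ATP. Under stress, the factor HSF1 binds heat shock elements, repeats of the unit nGAAn in alternating orientation, before many of these genes. THOC2 is a subunit of the THO complex, which joins the TREX complex on nascent transcripts and takes part in the export of mRNA from the nucleus. Splicing helps to load TREX on a transcript, so genes without introns are a case of special interest. Total RNA pools transcripts of the nucleus and the cytoplasm, so export itself was not measured here. HSPA1A, HSPA1B and HSPA6 are known as intronless chaperone genes and were set against the other 42 members, nearly all of which have introns in their coding region. HSPA2 and HSPA1L, whose coding region is also uninterrupted, stayed with the other members.

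The probes behind the 3 intronless genes are shown first, since near-identical copies make it uncertain which gene each one reads. The first 30 of the 60 bases of each probe are given 5′ to 3′, in lower case.
HSPA1A, hg19 chr6:31785491-31785550, plus strand: gagcttcaagactttgcatttcctagtatt
HSPA1B, hg19 chr6:31797870-31797929, plus strand: gtttcgttccctttaaatgaatcaacactg
HSPA6 first probe, hg19 chr1:161576964-161577023, plus strand: tctacaagtccatcactcgtgcccgctttg
HSPA6 second probe, hg19 chr1:161577785-161577844, plus strand: caaaatgcaagacaagtgtcgggaagtcct
Over the whole 60 bases, no 2 of the HSP70 family probes shared a run of more than 11 bases (45 pairs), so the probes of HSPA1A and HSPA1B are different stretches. Whether each probe also matches the other gene's transcript was not tested. Both HSPA6 probes lie after the FCGR2C probe and before the FCGR2B probes on the array's map. In the RefSeq gene order that place is held by HSPA7, a pseudogene closely related to HSPA6, whereas HSPA6 itself lies between FCGR2A and FCGR3A. Values under the name HSPA6 may thus come from either copy.

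The stretches before the start of transcription are shown for the 3 intronless genes and, as a constitutive member of the same family with introns, for HSPA8. Each holds 250 bases, 5′ to 3′ on the gene's strand, from RefSeq (GRCh38.p14), and capitals mark matches to GAANNTTC or TTCNNGAA, 2 units of a heat shock element, overlapping matches joined.
HSPA1A, chr6:31815293-31815542, plus strand: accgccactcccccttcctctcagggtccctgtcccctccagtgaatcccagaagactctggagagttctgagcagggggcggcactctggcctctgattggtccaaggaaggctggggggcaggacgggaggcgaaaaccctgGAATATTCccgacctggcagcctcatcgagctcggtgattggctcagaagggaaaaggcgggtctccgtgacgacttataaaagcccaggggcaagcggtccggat
HSPA1B, chr6:31827488-31827737, plus strand: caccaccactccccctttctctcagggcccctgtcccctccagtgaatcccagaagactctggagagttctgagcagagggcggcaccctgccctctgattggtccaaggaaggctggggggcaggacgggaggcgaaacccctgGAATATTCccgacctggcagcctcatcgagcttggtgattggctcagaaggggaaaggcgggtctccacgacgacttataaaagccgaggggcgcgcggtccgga
HSPA6, chr1:161524290-161524539, plus strand: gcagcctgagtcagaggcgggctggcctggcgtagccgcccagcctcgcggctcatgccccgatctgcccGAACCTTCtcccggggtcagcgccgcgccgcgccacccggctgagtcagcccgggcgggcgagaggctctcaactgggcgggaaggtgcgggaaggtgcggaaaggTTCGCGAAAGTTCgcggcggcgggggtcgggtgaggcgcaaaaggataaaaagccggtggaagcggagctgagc
HSPA8, chr11:123062137-123062386, minus strand: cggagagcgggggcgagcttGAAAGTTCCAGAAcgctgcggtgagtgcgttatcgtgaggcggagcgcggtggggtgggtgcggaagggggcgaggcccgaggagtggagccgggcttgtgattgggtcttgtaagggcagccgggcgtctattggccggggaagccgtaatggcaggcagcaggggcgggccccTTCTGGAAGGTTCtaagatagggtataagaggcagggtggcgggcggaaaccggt
The HSPA1A and HSPA1B stretches carried the same base at 235 of 249 positions once shifted by 1 base, and each held a single match, GAATATTC. HSPA6 held 1 run of 3 units and HSPA8 held 2.

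Signals below are the scanner software's processed signals, in its own brightness units. A log2 fold change is si-THOC2 over NC after each array's log2 signals were reduced by their 75th percentile, which was 0.31 higher on the NC array, so a probe of equal raw signal on both arrays has a log2 fold change of 0.31. A probe was counted as measured where the scanner software called it well above background. Of the 68 member probes, 61 were measured on both arrays, 7 on neither and 0 on 1 array only, so that 41 of the 45 genes had a value. HSPA1L, HSPA4L, DNAJB4 and HSPB8 were not well above background on either array. Probes printed in repeated spots, members among them, gave a median SD of the log2 fold change of 0.05 for log2 signals over 8 (244 probes). It was 0.10 between 6 and 8 (36 probes) and 0.22 between 4 and 6 (only 6 probes). These SDs cover the spots of 1 pair of arrays and leave out differences between cultures.

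No chaperone probe differed by 2-fold. In RNA of a whole culture, fewer cells with a transcript and less of it per cell cannot be told apart. Of the 61 measured probes, 0 were lower and 0 were higher by 2-fold, where 1.19% of the 22207 probes measured on both arrays were past 2-fold (0.365% lower and 0.829% higher), and 0.330% of those with a mean log2 signal over 8. Of the 25345 probes measured on at least 1 array, 3.33% were lower and 2.93% were higher by 2-fold. At those shares few or none of 61 probes would be past 2-fold, so the count of 0 does not set the chaperones apart. Log2 fold changes of the member probes ran from -0.93 for CCT5 to 0.39 for DNAJA2, with a median of 0.10 and an SD of 0.23. Within 0.25 of zero lay 50 of the 61 (82.0%), beside 65.3% of all probes measured on both arrays. The chaperone probes were mostly bright, 52 of 61 having a mean log2 signal over 8. Among bright probes the SD was 0.15 for the members and 0.23 for all 10015 probes.

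**Figure D1:**
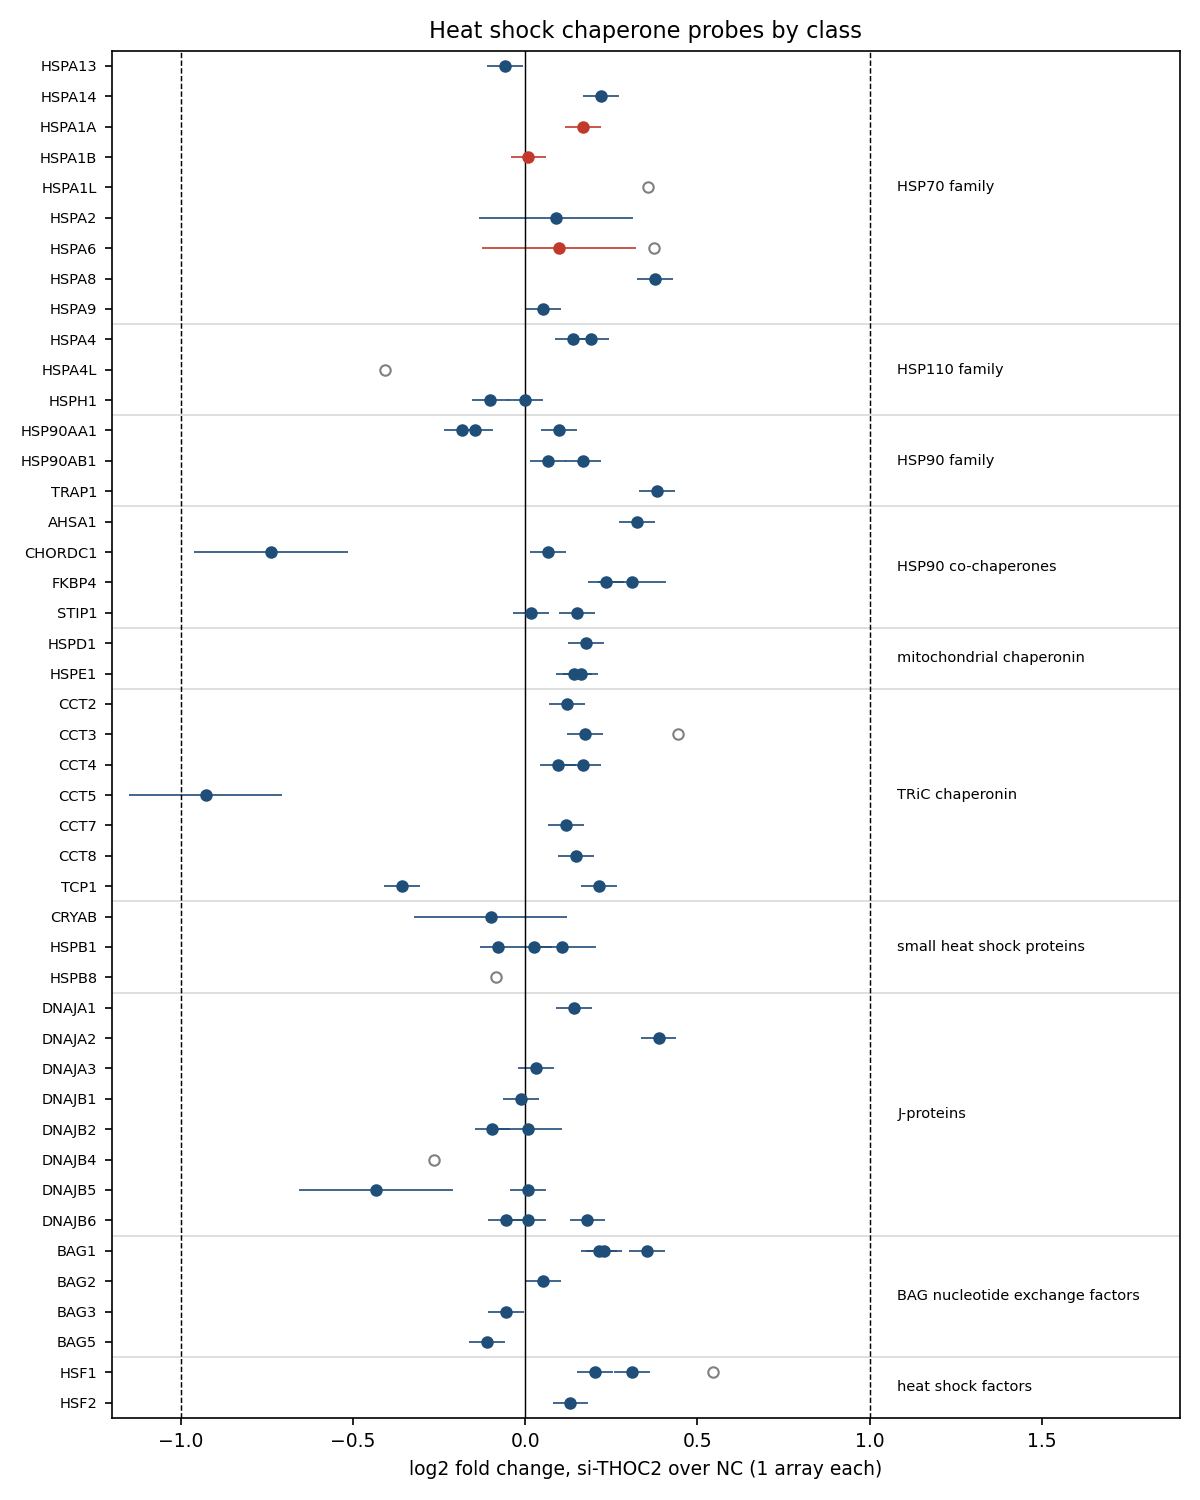
Log2 fold change (si-THOC2 over NC, 1 array each) on the x axis for each of the 68 member probes, 1 row per gene, grouped by class. Filled points were measured on both arrays (red for the intronless genes HSPA1A, HSPA1B and HSPA6), open grey points on neither, bars are the technical SD of repeated spots at that signal, and dashed lines mark 2-fold; no filled point reaches them, and CCT5 at -0.93 lies nearest.

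**Figure D2:**
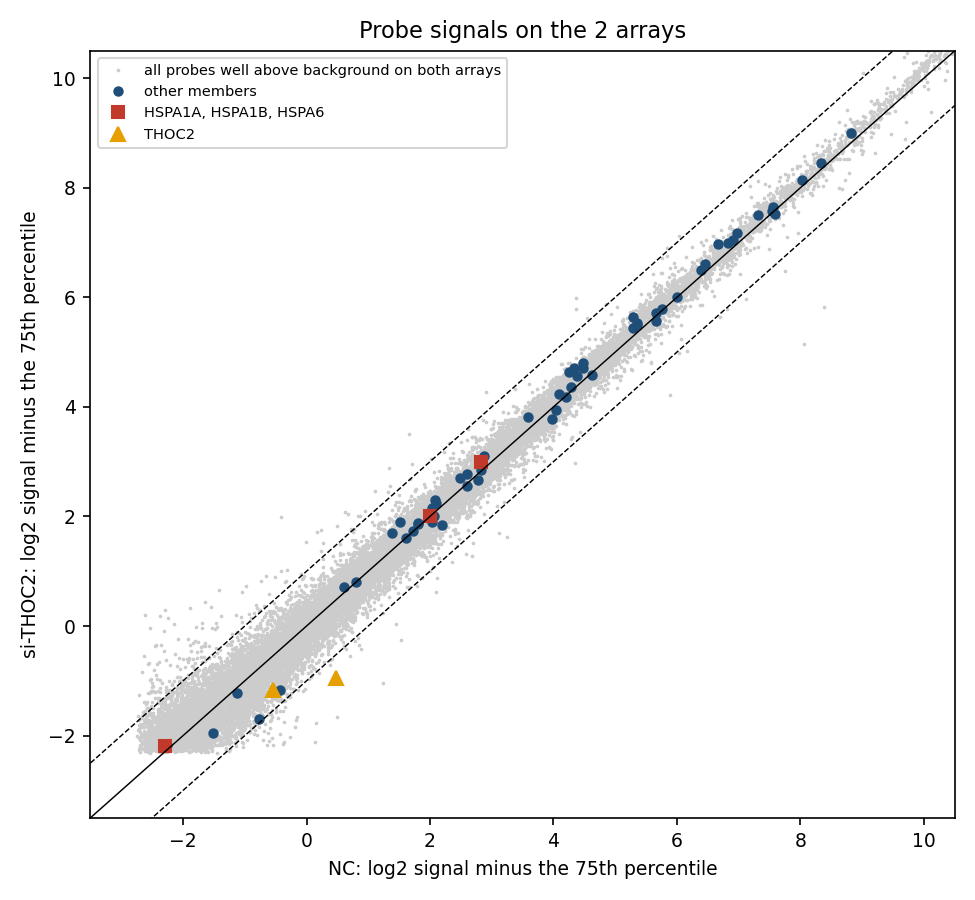
Log2 signal minus the array's 75th percentile with NC on the x axis and with si-THOC2 on the y axis, for the 22207 probes measured on both arrays (grey), with the chaperones in blue, the 3 intronless genes in red and THOC2 in orange. The solid line is equality and the dashed lines are 2-fold; the chaperones lie between the dashed lines over the whole range of signal, and 1 THOC2 probe lies below them.

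The log2 fold changes of the 3 intronless genes lay between 0.01 and 0.17. HSPA1A, a stress-inducible HSP70, gave 697 with NC and 631 with si-THOC2 (log2 fold change 0.17). Its probe was printed in repeated spots, and 9 of them were unflagged on both arrays. Over these the log2 fold change ran from 0.13 to 0.23 (mean 0.16, SD 0.04), above zero in 9 of 9 after scaling. Their raw signals were lower with si-THOC2 (676 to 741 with NC, 603 to 674 with si-THOC2). Repeated spots share 1 pair of cultures and 1 scaling, so their signs are not separate observations. HSPA1B, which encodes nearly the same protein from the neighbouring copy, had 394 and 320, a log2 fold change of 0.01. HSPA6, a strictly stress-inducible HSP70, had 20.1 and 17.3 on the probe that was measured, a log2 fold change of 0.10, less than the technical SD of 0.22 at that signal. The second HSPA6 probe was not well above background (3.07 and 3.21). All 3 intronless genes thus lay within 0.25 of zero, and HSPA6 was near the lowest signals called well above background (14.7 with NC and 15.9 with si-THOC2).

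The median log2 fold change was 0.10 for the 3 intronless genes and 0.10 for the 38 other measured members, a difference of -0.0045. The median of the intronless genes is the value of the dim HSPA6 probe, which may read HSPA7. The difference was -0.02 with HSPA2 left out of the other members. With HSPA1A and HSPA1B alone, the difference was -0.01; both of these choices were made after the data were seen. The difference was 0.06 for HSPA1A by itself and -0.09 for HSPA1B by itself. Lowess centring subtracts a trend of fold change on signal, fitted over the probes measured on at least 1 array. With it the difference was 0.09, and it was 0.08 with normexp background correction and 0.08 with no detection filter. The sign of the difference thus depends on the processing and on the gene taken. HSPA1A was thus above the median of the other members and HSPA1B below it. Against the 5 other measured HSP70 family members, the intronless median differed by 0.01. With lowess centring the dim HSPA6 probe was at 0.25, and HSPA1A, at 0.12, became the median of the 3. Before centring, the HSPA6 probe was higher than 42.3% of the 1668 probes of like signal measured on both arrays. The value of 0.25 therefore does not place it above those probes. With lowess centring the median of HSPA1A and HSPA1B alone was 0.05, against 0.03 for the other members. The differences for either gene by itself exceeded the technical SD of 0.05 of bright probes. So did those over the 3 genes with lowess centring, with normexp and with no detection filter, but the 3 genes include HSPA6, whose technical SD is 0.22. These differences were above zero for HSPA1A and in the settings named, and below zero for HSPA1B.

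Among the other HSP70 proteins, HSPA8 differed most. HSPA8, the constitutive cytosolic HSP70 (HSC70), gave 1983 with NC and 2075 with si-THOC2 (log2 fold change 0.38), higher than 95.2% of the 1486 probes of like signal (mean log2 signal within 0.5). HSPA14, an atypical HSP70 found at the ribosome, had 547 and 514, a log2 fold change of 0.22. HSPA9, the mitochondrial HSP70, had 4961 and 4147, a log2 fold change of 0.05. HSPA13, a microsomal HSP70-like ATPase, had 409 and 317, a log2 fold change of -0.06. HSPA2, best known from the testis, had 20.4 and 17.5, a log2 fold change of 0.09. HSPA8 was the only one of these whose raw signal was higher on the si-THOC2 array, and HSPA9, HSPA13 and HSPA2 lay within 0.10 of zero.

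The HSP110 proteins, which exchange the nucleotide of HSP70, lay on either side of zero. HSPA4 had log2 fold changes of 0.19 (2039 with NC, 1877 with si-THOC2) and 0.14 (11814 and 10492) on its 2 probes. HSPH1 had -0.10 (1622 and 1220) and -0.0014 (299 and 241). Within each gene the 2 probes lay on the same side of zero.

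The HSP90 paralogues lay on both sides of zero. HSP90AA1, the stress-inducible cytosolic HSP90, was read by 3 probes with log2 fold changes of -0.18 (1538 with NC, 1093 with si-THOC2), -0.15 (403 and 293) and 0.10 (8236 and 7113). The brightest probe thus lay above zero and the others below. HSP90AB1, the constitutive cytosolic form, had 0.07 (1921 and 1622) and 0.17 (4033 and 3656). TRAP1, the HSP90 of mitochondria, had 1872 and 1967, a log2 fold change of 0.38, higher than 95.4% of 1512 probes of like signal. TRAP1 was the highest of this family by more than the technical SD of 0.05.

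Among co-chaperones of HSP90, AHSA1 and FKBP4 were higher with si-THOC2 after scaling, though not clearly in raw signal, and CHORDC1 gave conflicting probes. AHSA1, which activates the ATPase of HSP90, had 2177 with NC and 2198 with si-THOC2 (log2 fold change 0.32). Over its 6 spots unflagged on both arrays, the log2 fold change was above zero in 6 of 6 after scaling and ran from 0.28 to 0.37 (SD 0.03). The raw signals of these spots overlapped (2106 to 2236 with NC, 2140 to 2245 with si-THOC2). FKBP4, an immunophilin of steroid receptor complexes, had 0.31 (255 and 256) and 0.23 (1178 and 1118). STIP1 (HOP), which bridges HSP70 and HSP90, had 0.15 (421 and 377) and 0.02 (695 and 567). CHORDC1, a zinc-binding partner of HSP90, had -0.74 on a dim probe (73.1 and 35.4) and 0.07 on a brighter one (345 and 291). Its gene value of -0.34, the lowest of this class, rests on the dim probe.

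In the mitochondrial chaperonin both subunits lay above zero. HSPD1 (HSP60) had 15677 with NC and 14287 with si-THOC2 (log2 fold change 0.18). HSPE1 (HSP10), which caps the chamber, had 0.16 (8589 and 7745) and 0.14 (4019 and 3577) on 2 probes that overlap on the map and are not independent. Together with HSPA9, TRAP1 and DNAJA3, these form the mitochondrial members. All 5 were above zero with a median of 0.15, against 0.02 for the 17514 genes compared, but only 3 of 5 remained above zero with lowess centring, where the median was 0.07.

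TRiC, the chaperonin of the cytosol that folds actin and tubulin, is built of paralogous subunits that enter 1 complex. Of the 7 subunits among the members, CCT2, CCT3, CCT4, CCT7 and CCT8 lay between 0.12 and 0.17. CCT2 had 25589 with NC and 22475 with si-THOC2 (0.12, above zero after scaling in 8 of 8 repeated spots). CCT7 had 31561 and 27638 (0.12, above zero after scaling in 8 of 8). With normexp background correction, however, CCT2 and CCT7 were at -0.0091 and -0.0082. CCT3 had 0.17 (11091 and 10087), with a second probe not above background, CCT4 had 0.17 (44477 and 40319) and 0.09 (18374 and 15822), and CCT8 had 0.15 (3833 and 3422). These 5 subunits lay close together, and with lowess centring they lay between 0.01 and 0.09.

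The other 2 subunits stood apart from them. CCT5 was read by a single probe, dim on both arrays, with 57.4 with NC and 24.3 with si-THOC2. Its log2 fold change of -0.93 (0.526 times the NC signal after scaling) was the lowest of all members, and 1.81% of 3600 probes of like signal were lower. TCP1 had 0.21 (416 and 389) on 1 probe and -0.36 (450 and 283) on another. The probes of CCT5 and CHORDC1 are shown because the lowest values among the chaperones rest on them, a choice made after their values were seen. The first 30 of 60 bases are given 5′ to 3′, in lower case.
CCT5, hg19 chr5:10265930-10265989, plus strand: atgtttcttagcattgtgatgataaagctc
CHORDC1 probe at -0.74, hg19 chr11:89933582-89933613, minus strand: gggtgtgattgatgtaaagcgaagttatta
CHORDC1 probe at 0.07, hg19 chr11:89935045-89935104, minus strand: tgtgggatgattacttttttaaggaggatt
The map gives fewer than 60 bases for the CHORDC1 probe at -0.74 and for the TCP1 probe at 0.21, so these probes are placed only in part. The transcript that each probe reads was not analysed here. Of the 16 members with more than 1 measured probe, 4 had probes that differed by more than 0.25, namely CHORDC1 (0.80), TCP1 (0.57), DNAJB5 (0.44) and HSP90AA1 (0.28). The median range between probes was 0.12 for these members and 0.20 for the 3718 genes with at least 2 probes on both arrays.

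Small heat shock proteins lay near zero. HSPB1 (HSP27) had -0.08 (18978 with NC, 14497 with si-THOC2), 0.03 (18354 and 15073) and 0.11 (149 and 130) on its 3 probes. CRYAB (alpha-B crystallin) had 45.01 and 33.9, a log2 fold change of -0.10, less than the technical SD of 0.22 at that signal.

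Of the J-proteins, DNAJA2 was the highest, at a value that differed from those of TRAP1 and HSPA8 by less than the technical SD, and centred by block HSPA8 (0.38) was above DNAJA2 (0.33). DNAJA2, a J-protein of the cytosol, had 281 with NC and 296 with si-THOC2 (log2 fold change 0.39), higher than 94.0% of 2677 probes of like signal. DNAJA1 had 1665 and 1483 (0.14). DNAJA3, the mitochondrial J-protein, had 5300 and 4369 (0.03), with values of -0.02 to 0.12 over its 9 repeated spots. DNAJB1 (HSP40), the stress-inducible partner of HSP70, had 1800 and 1441 (-0.01), and lay between -0.13 and -0.01 over the settings tried. DNAJB2 had 0.01 and -0.10, and DNAJB6, which keeps aggregation-prone proteins apart, had -0.06, 0.01 and 0.18. DNAJB5 had 0.01 on its brighter probe (324 and 263) and -0.43 on a dim probe (34.2 and 20.4).

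**Figure D3:**
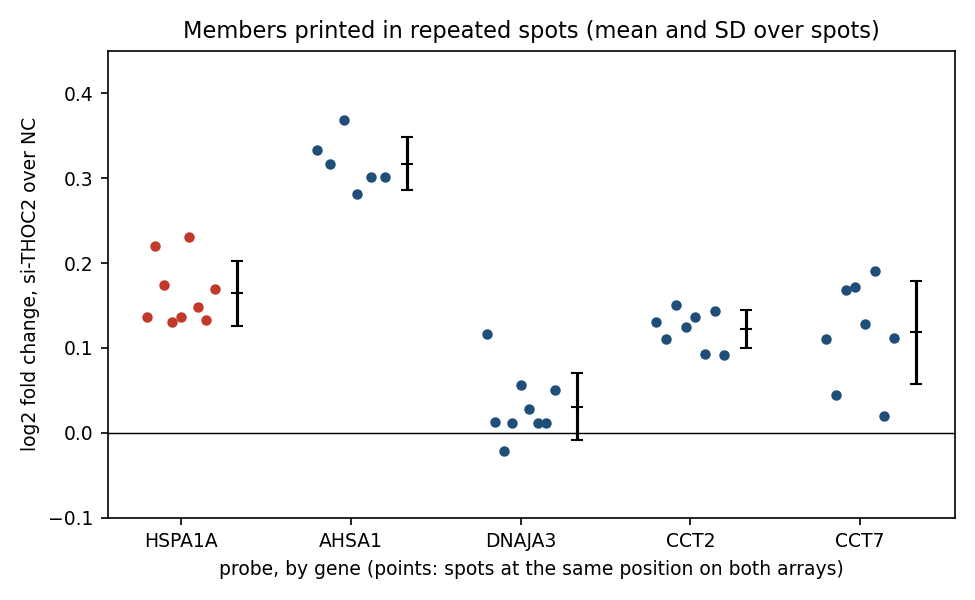
Log2 fold change (y axis, si-THOC2 over NC) of each pair of spots at the same position on both arrays, for the 5 member probes printed in repeated spots (x axis), with the mean and SD over spots at the right of each. AHSA1 lies between 0.28 and 0.37, HSPA1A between 0.13 and 0.23, and DNAJA3 spans zero; spots of 1 probe share the RNA of the same 2 cultures.

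Among the BAG proteins BAG1 differed from the rest. BAG1, which couples HSP70 to the proteasome, had 0.35 (3844 with NC, 3966 with si-THOC2), 0.23 (2187 and 2069) and 0.21 (723 and 677) on 3 probes, of which the first 2 overlap on the map. BAG3, which is induced by stress and directs clients to autophagy, had 598 and 464 (-0.06), BAG5 had 675 and 504 (-0.11) and BAG2 had 344 and 288 (0.05). All 3 probes of BAG1 were thus above those of BAG2, BAG3 and BAG5.

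The transcription factors themselves lay above zero after scaling. HSF1, the main factor of the heat shock response, had 0.31 (9997 with NC, 10005 with si-THOC2) and 0.20 (12311 and 11434) on 2 overlapping probes. Its remaining probe was not well above background. HSF2, a related factor, had 401 and 355, a log2 fold change of 0.13. With normexp background correction HSF1 was at 0.17 and HSF2 at 0.01.

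By class, the median log2 fold change was 0.09 for the HSP70 family (8 of 9 genes measured), 0.06 for HSP110 (2 of 3), 0.12 for HSP90 (3 of 3), 0.18 for HSP90 co-chaperones (4 of 4), 0.16 for the mitochondrial chaperonin (2 of 2) and 0.12 for TRiC (7 of 7). It was -0.04 for small heat shock proteins (2 of 3), 0.03 for J-proteins (7 of 8), -0.0022 for BAG proteins (4 of 4) and 0.19 for the heat shock factors (2 of 2). The class medians of the HSP70 family, HSP90 co-chaperones, mitochondrial chaperonin and heat shock factors stayed above zero, and those of small heat shock proteins and BAG proteins below zero, under 10 other ways of processing. Those of HSP110, HSP90, TRiC and J-proteins changed sign under at least 1. A chaperone list of heat-inducible genes, the classic targets of HSF1 among the members, had a median of 0.02 over 15 measured genes of 17, beside 0.02 for all genes, with 9 above zero and 6 below. It ran from -0.34 (CHORDC1) to 0.32 (AHSA1), and its median turned sign under other processing (-0.05 to 0.02).

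Fold change moved with signal on these arrays, and the chaperones are bright. The median log2 fold change was 0.02 for the 12192 probes with a mean log2 signal under 8 and 0.10 for the 2166 probes of 12 or more. Over all members the median was 0.10, against 0.02 for all 17514 genes, and 29 of 41 members (70.7%) were above zero, against 53.4% of all genes. Restricted to log2 signals over 8, the median was 0.12 for 37 members and 0.06 for 7982 genes, with 75.7% of members and 62.6% of genes above zero. With lowess centring the median of the 41 members was 0.03 and that of all genes 0.0050, with 58.5% and 50.8% above zero. The members' median lay 0.08 above that of all genes with the 75th percentile scaling, 0.03 above it with lowess centring, and differed from it by -3.3e-05 with normexp background correction and by -0.15 with no detection filter, so the direction of this small shift depends on the processing. In 19 of 41 members the gene value was above zero in every setting tried, HSPA8, TRAP1, DNAJA2, AHSA1, FKBP4, BAG1, HSF1 and HSPA1A among them. It was below zero in every setting in 11, among them CCT5, CHORDC1, BAG5, BAG3 and DNAJB1, and changed sign in the other 11, HSPA1B, HSPA9, CCT2 and CCT7 among them. These counts were not made for all genes, so they do not set the members apart. A gene value is a mean over probes. Of the members below zero in every setting, CHORDC1, TCP1, DNAJB5, HSP90AA1 and DNAJB2 had probes on both sides of zero. The settings are not separate checks. Keeping only probes measured on both arrays, or setting dim signals at their limit, changed no member value, and the largest change with median scaling was 0.0011.

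**Figure D4:**
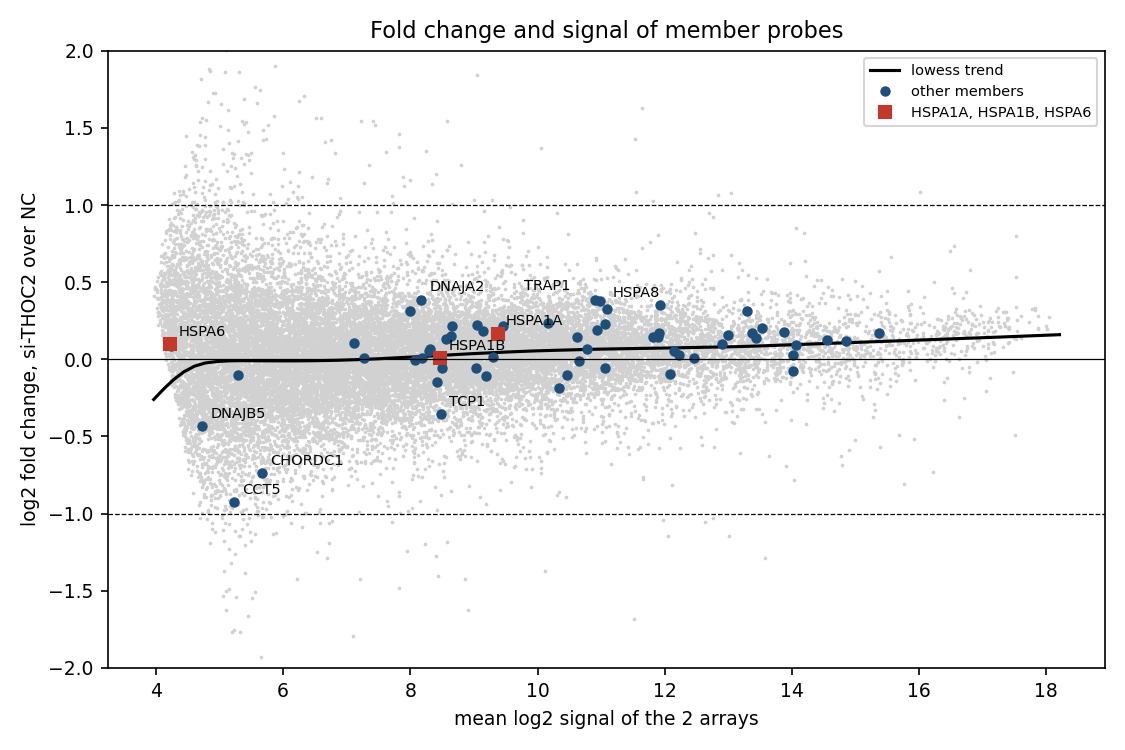
Log2 fold change (y axis, si-THOC2 over NC) against the mean log2 signal of the 2 arrays (x axis) for the probes measured on both arrays (grey), with the lowess trend in black, the chaperones in blue and the intronless genes in red; dashed lines mark 2-fold and the y axis stops at 2. The spread of grey points narrows with signal and the trend climbs, and CCT5, CHORDC1 and DNAJB5 fall in the dim, wide part. The trend was fitted over the probes measured on at least 1 array, so some of its probes are not drawn. Near the signal of HSPA6 most grey points lie above it.

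Promoters were matched for 41 of the 45 members (not HSF1, HSPA14, FKBP4 or CRYAB). The letters GAANNTTC and TTCNNGAA, each of which reads the same on both strands, were searched in the 250 bases before the start. GAANNTTC was found before 17 of 41 members (41.5%) and 7.05% of 27305 genes, and TTCNNGAA before 9 members (22.0%) and 8.12% of genes. Runs of 3 units (GAANNTTC continued by NNGAA, or TTCNNGAA continued by NNTTC, each holding both shorter motifs) were found before 7 members (17.1%), against 0.557% of genes, namely CHORDC1, DNAJB6, HSP90AA1, HSP90AB1, HSPA6, HSPA8 and HSPD1. The 7 had log2 fold changes from -0.34 to 0.38 with a median of 0.10, and the 30 other measured members with a promoter had a median of 0.09. The 15 measured members with either motif of 2 units had a median of 0.05, and the 22 with neither had 0.10. Members with either motif ran from -0.34 to 0.38 and those with neither from -0.93 (CCT5) to 0.39. The difference between these groups was not tested, and a match is only a description of the sequence.

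Other genes of the chaperone network gave a similar picture. Of 53 further genes (prefoldin, further J-proteins, HSP90 and HSP70 cofactors, mitochondrial proteases), 47 were measured, with a median of 0.07, 30 above zero and 17 below, and values for 45 came from both arrays. Lowest on both arrays was DNAJC21, a J-protein of ribosome biogenesis, with -0.69 (133 with NC, 66.3 with si-THOC2) and -0.59 (53.8 and 28.8). Highest, and the single gene of the list past 2-fold (2.96% of all genes were higher by 2-fold), was HSPB9, a testis-specific small heat shock protein, at 1.05 on a dim probe (21.0 and 35.1). HSBP1, a small protein that binds HSF1, had -0.66 (1495 and 762) and -0.32 (11686 and 7546) and is named here after its values were seen.

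Chaperones of the endoplasmic reticulum, most of which belong to the unfolded protein response, were listed for contrast. SERPINH1 (HSP47) among them is also a target of HSF1. All 14 were measured, 11 below zero and 3 above, with a median of -0.06, which stayed below zero in every setting tried (-0.14 to -0.06). None was past 2-fold, beside 6.30% of all genes, which include dim ones measured on 1 array only. Among probes measured on both arrays with a mean log2 signal over 8 the share was 0.330%, so this count does not set the 14 genes apart. HSPA5 (BiP), the HSP70 of this compartment, was the lowest, with 4284 with NC and 2433 with si-THOC2 (log2 fold change -0.51) on a single probe. CALR, a lectin chaperone, was the highest at 0.29 (32768 and 32330). The cytosolic HSPA8 at 0.38 and the mitochondrial HSPA9 at 0.05 thus lay above HSPA5 on these arrays, by more than the technical SD of 0.05 for each.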

How the data were processed

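RNA of 1 NC and 1 si-THOC2 culture of A375 went on 1 Agilent SurePrint G3 Human v3 array each. Spot intensity values were deposited as scanner output, extracted by the authors with Agilent Feature Extraction 10.7.1.1 (submitters' processing notes), with background already subtracted. Flags deposited with each spot mark outliers, saturated spots and those well above background. A table of normalized log2 values was deposited too, whose sorted values on the 2 arrays differ by at most 0.00079. A further deposited table holds the authors' own comparison (fold changes and direction) and was not used. The methods' threshold was 2-fold with Student's test, which needs replicates and was not run.

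Control spots and outlier spots (147 non-control on the NC array and 168 on the si-THOC2 array) were removed, none was saturated, and the log2 values of a probe's spots were averaged (58199 probes). Each array was reduced by its 75th percentile (6.62 and 6.31). By the deposited flags, 24616 probes were well above background with NC and 22936 with si-THOC2, and the number of arrays limits the precision. Genes take the mean over their probes measured on at least 1 array. Members, classes and lists were chosen with earlier results of these data known. Genes named were THOC2, the members, and, from the network and endoplasmic reticulum lists, genes past 2-fold and the highest and lowest on both arrays, with exceptions marked. The sequences of some probes are not reported here. Marker lists of other cell types gave 2 of 5 epithelial, 3 of 4 immune and 1 of 3 endothelial genes measured on both arrays, the immune and endothelial ones at signals under 40. The comparison was also run on simulated arrays with planted changes larger than any seen in the members. Those arrays held no variation between cultures, so they do not bear on the small differences given here. The software was R 4.3.3 (limma 3.58.1) and Python 3.11.15 (numpy 2.4.6, pandas 2.3.3, statsmodels 0.14.6). The alternatives are named in the closing section.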

Additional observations from a re-analysis of the deposited data

How the results depend on the processing

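No paired analysis was possible because each condition has 1 array. The count of 0 member probes past 2-fold in either direction was the same under every alternative: quantile normalization, scaling on the median or on the 75th percentile of probes measured on both arrays, the deposited normalized values, normexp (offset 50), lowess centring (span 0.3), no detection filter, only probes measured on both arrays, dim signals set at their limit, centring by block (16 rows by 8 columns), a 3-fold threshold and genes in place of probes. Some of these could not change it: a probe under 2-fold is under 3-fold, and, since all 61 measured member probes were on both arrays, keeping only such probes or setting dim signals at their limit leaves every member value as it is. The members' median of 0.10 was 0.044 with quantile normalization, 0.039 with the 75th percentile over probes on both arrays, 0.031 with lowess centring, 0.045 with the deposited values and -0.00062 with normexp. The members' median less that of all genes (0.08) was -3.3e-05 with normexp and -0.15 with no detection filter, where all genes have a median of 0.24. The intronless genes less the other members (-0.0045) gave 0.093 with lowess centring, 0.082 with normexp, 0.080 with no detection filter, 0.064 with HSPA1A alone and -0.093 with HSPA1B alone. Of the 41 members, the value moved by more than the technical SD in 38 with normexp, 35 with the 75th percentile over probes on both arrays, 21 with lowess centring, 20 each with quantile normalization and the deposited values, 8 with centring by block, 2 with no detection filter and 0 with median scaling, and THOC2 stayed between -1.09 and -0.51. Normexp with its offset draws dim probes toward zero by construction (CCT5 -0.32). The alternative without probes shared by HSPA1A and HSPA1B was not run, since the deposited annotation gives each probe 1 symbol and matches to the other copy were not tested. With 1 array per condition, differences between cultures cannot be told apart from an effect of the siRNA.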
